A study of Mus musculus with 15 samples.

Results

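The granins are the acidic, soluble proteins that fill the dense-core granules of endocrine cells and neurons beside the hormones. The granin genes Chga, Chgb, Scg2, Scg3, Scg5 and Vgf were taken by gene symbol from the deposited expression table, which gave 6 genes of 38283, with 1 entry each. RNA had been sequenced in 15 samples of fluorescence-sorted islet cells from C57BL/6 mice, with 5 samples of alpha cells, 4 of beta cells and 6 of delta cells. Alpha and beta cells came from Glu-Venus mice, in which the proglucagon promoter drives the Venus fluorophore. Alpha cells were the Venus-positive fraction, and beta cells were gated from the Venus-negative fraction by light scatter and autofluorescence, without a reporter of their own. Delta cells came from the Sst-CreXROSA26EYFP/EYFP line, in which Cre under the Sst promoter switches on EYFP, so effects of the mouse line and of the delta cell type cannot be told apart. No sample was treated, and no age is given in the labels used here. Islets of several mice were pooled for a sample, and the p-values below measure the spread between these pools. Whether an alpha and a beta sample came from the same mice is not given in the sources used here.

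Granins are sorted into the granule at the trans-Golgi network, where they condense with hormones and calcium, and they are cut by prohormone convertases into peptides that are released together with the hormone. Chromogranin A (Chga) and chromogranin B (Chgb) are the classical chromogranins, secretogranin II (Scg2) is the precursor of secretoneurin, secretogranin III (Scg3) holds chromogranin A at the cholesterol-rich granule membrane, Scg5 is the chaperone of the convertase encoded by Pcsk2, and Vgf is the precursor of several neuropeptides. Chromogranin A is widely used as a general marker of neuroendocrine cells, islet cells included.

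Transcription of several granin genes is known to respond to cyclic AMP through a cyclic AMP response element (CRE), so their promoters were read for its letters. RefSeq promoters (GRCm38.p6) were at hand for 5 of the 6 genes, all but Vgf. The windows of 30 bases below are shown because each holds the CRE or its core, with the matching letters in capitals and the sequence written 5′ to 3′ on the strand of the gene.
Chga, chr12:102554886-102554915, plus strand: gggcggtcctaTGACGTAAtttcctgggtg
Chgb, chr2:132781559-132781588, plus strand: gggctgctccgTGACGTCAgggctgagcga
Scg2, chr1:79440076-79440105, minus strand: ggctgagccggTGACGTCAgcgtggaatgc
Scg5, chr2:113829249-113829278, minus strand: aaaggaggtaaaTGACGTtcataggggtcg

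Counted from the RefSeq start, with -1 the base before it, the full octamer TGACGTCA lay from -72 to -65 in Chgb and from -68 to -61 in Scg2. Chga had TGACGTAA from -44 to -37, and Scg5 had only the core TGACGT, from -175 to -170. In the 250 bases before each of 32851 RefSeq starts, searched on both strands, 508 (1.55%) held TGACGTCA, 147 (0.448%) held TGACGTAA and 2125 (6.47%) held TGACGT, which both octamers contain. The core was in 4 of the 5 granin promoters and the full octamer in 2 of the 5. The promoter of Scg3 held none of these letters. A match describes the letters of the window and is not a binding site.

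In the GENCODE M21 annotation of GRCm38, Chga (ENSMUSG00000021194) spans chr12:102554969-102565028 on the plus strand, with 8 exons in its longest transcript. Chgb (ENSMUSG00000027350) spans chr2:132781278-132795079 on the plus strand, with 5 exons. Scg2 (ENSMUSG00000050711) spans chr1:79434669-79440120 on the minus strand and has 2 exons. Scg3 (ENSMUSG00000032181) spans chr9:75643189-75684056 on the minus strand, has 12 exons and overlaps Gm37871, a locus still awaiting experimental support, on the opposite strand, whose reads could not be told from those of Scg3 because use of strand in the quantification is not given in the sources used here. Scg5 (ENSMUSG00000023236) spans chr2:113776362-113829121 on the minus strand, with 6 exons. Vgf (ENSMUSG00000037428) spans chr5:137026392-137033351 on the plus strand, with 5 exons. The Chgb and Scg2 windows above lie inside the GENCODE gene spans, which begin before the RefSeq starts.

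Levels are given as FPKM, read fragments divided by the length of the transcript and by the size of the library. Ranks and shares between genes below assume that amplification and sequencing treated the transcripts alike, which was not tested. Each hormone was highest in its own cells: Gcg was at 184400 to 344900 FPKM in alpha cells, Ins2 at 91250 to 638900 in beta cells and Sst at 101500 to 266300 in delta cells. Ppy, the hormone of PP cells, was at 17730 to 41390 FPKM in alpha cells, 17.0 to 98.1 in beta cells and 10860 to 48600 in delta cells. Summed over 7 acinar markers the level was 0.122 to 61.1 FPKM in alpha, 0.0283 to 10.1 in beta and 2.26 to 468 in delta cells, with Amy2a5 at 0 in all samples. The 5 duct markers summed to 25.3 to 172 FPKM in alpha, 8.56 to 24.2 in beta and 19.8 to 99.9 in delta cells, with Spp1 and Krt7 above 0 in all samples, Cftr at 0 in every alpha and beta sample and Krt19 at 0 in every delta sample. Sox9 had a mean of 1.29 FPKM in delta cells, 0.00229 in alpha and 0.00844 in beta cells. The part of PP, acinar and duct cells in the granin results was not tested. The table gives no read totals, but the single-read steps of low values could be resolved in 6 samples and put their depth between 7.4 M and 30.5 M reads.

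The samples of each cell type fell into 2 sets. The summed level of 85 ribosomal protein genes was above 50000 FPKM in 6 samples, namely alpha 1, 2 and 3, beta 2 and delta 1 and 2, and below it in the other 9. Resolved depth was 7.4 M to 10.9 M reads in 3 samples of the higher set and 25.4 M to 30.5 M in 3 of the lower set. The labels and methods name no batch for this split, and its part in the granin levels was not tested. Granin comparisons are therefore given over all 15 samples, with values within the sets beside them.

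By mean FPKM, the granin genes other than Vgf were among the most abundant transcripts of all 3 cell types. Ranked by mean FPKM among the 14405 genes with a mean above 1 FPKM in at least 1 cell type, Chga was at place 121 in alpha, 79 in beta and 140 in delta cells. Chgb was at place 258, 143 and 37, and Scg2 at place 387, 49 and 78, in the same order of cell types. Scg3 was at place 469, 101 and 359 and Scg5 at place 278, 161 and 251. Vgf stood apart, at place 10632, 12827 and 13860. These places do not hold for every sample. Chgb had a mean of 251 FPKM in alpha cells but a median of 42.4, and Scg3 was as low as 21.7 FPKM in alpha and 18.2 in delta cells.

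**Figure D1:**
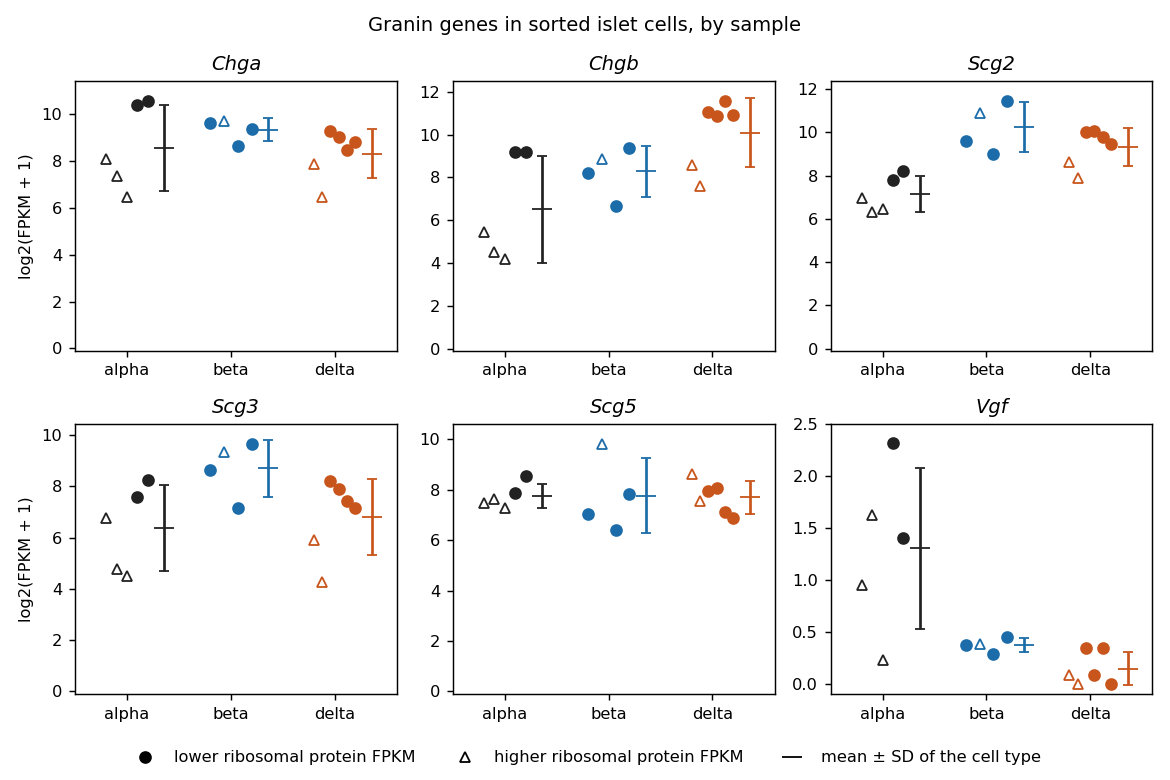
Level of each granin gene, as log2(FPKM + 1), in every sample of alpha (n = 5), beta (n = 4) and delta cells (n = 6), with bars for the mean and SD of the cell type. Open triangles are the 6 samples with ribosomal protein sums above 50000 FPKM and filled circles the other 9; in alpha and delta cells the triangles lie below the circles for Chga, Chgb, Scg2 and Scg3, and Vgf lies under 2.5 in all samples.

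Chga did not separate the cell types. It was at 268, 162, 86.9, 1343 and 1514 FPKM in alpha samples 1 to 5 and at 795, 830, 402 and 652 FPKM in beta samples 1 to 4. In delta cells it ran from 86.0 to 617 FPKM, with a median of 401. The groups overlapped throughout, and alpha cells held both the highest and nearly the lowest values.

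The mean level of Chga was 675 ± 694 FPKM in alpha (SD, n = 5), 670 ± 194 in beta (n = 4) and 375 ± 194 in delta cells (n = 6). The alpha spread followed the 2 sets. The mean of the 2 alpha samples of the lower ribosomal set was 8.29 times that of the 3 of the higher set, and the corresponding ratio was 3.03 in delta cells and 0.742 in beta cells, where 1 sample was in the higher set. With limma over all genes tested, Chga differed by 0.77 ± 0.80 (SE) on the log2 scale between beta and alpha cells (adjusted p = 0.605), by -0.26 ± 0.72 between delta and alpha cells (adjusted p = 0.921) and by -1.02 ± 0.77 between delta and beta cells (adjusted p = 0.421).

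Within the 9 samples of the lower set Chga had another order. There it was at 1343 and 1514 FPKM in alpha, 402 to 795 in beta and 350 to 617 in delta cells, so alpha cells lay above both other types. The difference between delta and alpha cells was -1.59 and passed the test in these 9 samples (limma, adjusted p = 0.0436), and that between beta and alpha cells was -1.26 (adjusted p = 0.0725), the opposite direction from all 15 samples. In the higher set the single beta sample, at 830 FPKM, lay above the alpha samples, at 86.9 to 268, with a difference of 2.41 (adjusted p = 0.227), and delta cells differed from alpha cells by -0.14 (adjusted p = 1.0) and from beta cells by -2.54 (adjusted p = 0.219). Over all alternatives tried, the adjusted p of delta against alpha cells ran from 0.0436 to 1.0 and that of beta against alpha cells from 0.0725 to 1.0.

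Chgb had its highest levels in delta cells. It was at 42.4, 21.9, 17.2, 589 and 584 FPKM in alpha samples 1 to 5 and at 297, 461, 99.0 and 663 FPKM in beta samples 1 to 4. In delta cells the lowest value was 189, the median 1894 and the highest 3047 FPKM. Delta samples 3 to 6, at 1866 FPKM or more, lay above every alpha and beta sample, while delta samples 1 and 2, at 380 and 189, lay within the alpha and beta ranges.

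Mean Chgb was 251 ± 307 FPKM in alpha (n = 5), 380 ± 240 in beta (n = 4) and 1583 ± 1094 in delta cells (n = 6). Delta cells exceeded alpha cells by 3.58 ± 1.02 (SE) on the log2(FPKM + 1) scale, or 12.0-fold (limma, adjusted p = 0.0450). The call was lost in 11 of the 15 fits that left out 1 sample, where the difference stayed between 3.00 and 4.25 and the adjusted p reached 0.142 without alpha sample 3. It held without alpha 4, alpha 5, delta 1 or delta 2. It was also lost with a filter of 0.1 FPKM (adjusted p = 0.0575), without a filter (0.167), with size factors (0.0610), quantile normalization (0.0638) or rescaling without hormone genes (0.0633) and in a fit of delta and alpha cells alone (0.0978). The adjusted p over all alternatives was 0.0193 to 0.195.

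The 2 ribosomal sets differed more for Chgb than for any other granin in alpha and delta cells, with a mean 21.6 times higher in the lower set in alpha cells and 7.84 times higher in delta cells, against 0.766 times in beta cells. Within each set, however, delta cells lay above alpha cells without overlap, at 380 and 189 against 17.2 to 42.4 FPKM in the higher set and at 1866 to 3047 against 584 and 589 FPKM in the lower set. The difference was 1.90 in the lower set (adjusted p = 0.195) and 3.36 in the higher set (adjusted p = 0.0956). Against beta cells, delta cells were higher by 1.81 ± 1.09 over all samples, which did not pass (adjusted p = 0.295). In the lower set alone that difference was 3.02 (limma, adjusted p = 0.00950), whereas in the higher set, with 1 beta sample at 461 FPKM, it was -0.78 (adjusted p = 0.603). Over the alternatives the adjusted p of this comparison ran from 0.00950 to 0.641. Beta and alpha cells differed by 1.77 ± 1.13 (adjusted p = 0.372), with a value of -1.12 in the lower set.

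Scg2 was lower in alpha cells than in beta cells. It was at 123, 78.7, 88.1, 220 and 300.2 FPKM in alpha samples 1 to 5, and at 784, 1932, 502 and 2810 FPKM in beta samples 1 to 4. In delta cells it ran from 238 to 1061 FPKM with a median of 804. Every beta sample lay above every alpha sample, and the delta values overlapped with both.

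Mean Scg2 was 162 ± 95.5 FPKM in alpha (n = 5), 1507 ± 1066 in beta (n = 4) and 721 ± 342 in delta cells (n = 6). Beta cells exceeded alpha cells by 3.09 ± 0.62 (SE) on the log2 scale, or 8.50-fold (95% interval of the log2 difference 1.77 to 4.41, limma, adjusted p = 0.00590). Of the 6 granin genes, 1 was called in this comparison, Scg2, where 7.66% of all genes tested were called (2.84% as higher in beta cells) and 8.12% had groups that did not overlap. The call held in all 15 fits that left out 1 sample, with differences of 2.68 to 3.51. It was lost in the lower ribosomal set (2.00, adjusted p = 0.0988), where the 3 beta samples lay above the 2 alpha samples. In the higher set the single beta sample, at 1932 FPKM, lay 4.34 above the mean of the 3 alpha samples on the log2 scale, with no spread among beta samples. The adjusted p over all alternatives was 0.00101 to 0.0988.

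In Scg2 delta cells also exceeded alpha cells, by 2.16 ± 0.56 or 4.46-fold (limma, adjusted p = 0.0267). Delta samples 1 and 2, at 389 and 238 FPKM, were the lowest of delta cells, and delta 2 lay below the highest alpha value of 300.2 FPKM. Within sets there was no overlap, with 713 to 1061 against 220 and 300.2 FPKM in the lower set (difference 1.83, adjusted p = 0.187) and 389 and 238 against 78.7 to 123 FPKM in the higher set (1.67, adjusted p = 0.135). The call was lost when alpha 1, 2 or 3 or delta 3, 4, 5 or 6 was left out, with an adjusted p of up to 0.0759 and differences of 1.95 to 2.44 over the 15 fits. Delta and beta cells differed by -0.93 ± 0.60 (adjusted p = 0.333). The adjusted p of delta against alpha cells was 0.0112 to 0.187 over all alternatives, and that of delta against beta cells 0.0576 to 0.865.

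Scg3, the membrane adaptor of chromogranin A, had its highest mean in beta cells. It was at 108, 26.2, 21.7, 194 and 307 FPKM in alpha samples 1 to 5 and at 397, 651, 143 and 804 FPKM in beta samples 1 to 4. In delta cells it ran from 18.2 to 297 FPKM with a median of 155. Beta samples 1, 2 and 4 lay above every alpha and delta sample, and beta 3 lay within both ranges.

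Means of Scg3 were 131 ± 121 FPKM in alpha (n = 5), 499 ± 291 in beta (n = 4) and 154 ± 105 in delta cells (n = 6). The differences were 2.32 ± 0.90 between beta and alpha cells (limma, adjusted p = 0.134) and -1.89 ± 0.87 between delta and beta cells (adjusted p = 0.164), so neither passed after adjustment, with unadjusted p of 0.0208 and 0.0448. Delta and alpha cells differed by 0.43 ± 0.82 (adjusted p = 0.864). The lower set had 4.81 times the mean of the higher set in alpha cells and 5.49 times in delta cells, against 0.689 times in beta cells. Within the sets beta cells exceeded alpha cells by 0.55 in the lower (adjusted p = 0.693) and by 4.00 in the higher (adjusted p = 0.168), where beta cells were 1 sample, and delta cells differed from beta cells by -0.82 and -4.26.

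Scg5, the chaperone, did not separate the cell types either. It was at 177, 196, 152, 231 and 367 FPKM in alpha samples 1 to 5 and at 129, 895, 83.2 and 225 FPKM in beta samples 1 to 4. In delta cells it ran from 115 to 391 FPKM with a median of 216. The groups overlapped throughout, and beta 2 stood far above the other beta samples.

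Mean Scg5 was 224 ± 84.7 FPKM in alpha (n = 5), 333 ± 379 in beta (n = 4) and 223 ± 101 in delta cells (n = 6). The differences were 0.01 ± 0.60 between beta and alpha (limma, adjusted p = 1.0), -0.06 ± 0.54 between delta and alpha (adjusted p = 0.985) and -0.07 ± 0.58 between delta and beta cells (adjusted p = 0.961). Each of these 3 differences changed sign under at least 1 alternative. The 95% intervals of the log2 differences were -1.26 to 1.29, -1.21 to 1.09 and -1.29 to 1.15 in the same order, so a change of more than 1 on the log2 scale in either direction lay within them. In beta cells, with 1 sample in the higher ribosomal set, the lower set had 0.163 times its mean of Scg5, and in alpha cells 1.71 times. In delta cells the ratio was 0.658, where Chga, Chgb, Scg2 and Scg3 were higher in the lower set. Within the sets beta and alpha cells differed by -1.11 in the lower (adjusted p = 0.242) and by 2.36 in the higher (adjusted p = 0.0879), and delta and beta cells by 0.41 (adjusted p = 0.565) and -1.72 (adjusted p = 0.151), so the 2 sets had opposite signs where the difference over all samples was near 0.

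Vgf was under 1 FPKM in every beta and delta sample. It was at 0.933, 2.08, 0.172, 3.98 and 1.64 FPKM in alpha samples 1 to 5 and at 0.293, 0.299, 0.221 and 0.367 FPKM in beta samples 1 to 4. In delta cells it ran from 0 to 0.271 FPKM with a median of 0.0587, and was listed at 0 in delta 2 and delta 6. Of the alpha samples, alpha 3 alone lay within the delta range and below the beta range, and the other 4 lay above every beta and delta sample.

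Mean Vgf was 1.76 ± 1.44 FPKM in alpha (n = 5) and 0.295 ± 0.0597 in beta cells (n = 4). Vgf therefore entered the test through its alpha mean alone, which by itself favours a difference. Delta cells were lower than alpha cells by a difference of -1.16 ± 0.32 on the log2(FPKM + 1) scale (limma, adjusted p = 0.0336), a scale that understates changes of low genes. As a log2 ratio of mean FPKM, which is a value without a test, the difference was -4.01. After rescaling without hormone genes the difference was -0.28 (adjusted p = 0.162). That rescaling lowers every FPKM before 1 is added, so it shrinks the differences of low genes. Without the filter on low levels the adjusted p was 0.0596, and without alpha sample 2 it was 0.0684, in a range of 0.00271 to 0.482 over all alternatives. In the lower ribosomal set the difference was -1.67 (adjusted p = 0.00813) and in the higher set -0.89 (adjusted p = 0.482), and in each set the delta values lay below the alpha values. Beside this, the 5 stellate cell markers summed to 1.77 to 4.95 FPKM in alpha, 0.0972 to 0.908 in beta and 0.289 to 0.988 in delta cells, through Col1a2 (mean 2.16, 0.00172 and 0.0111 FPKM) and Rgs5, while Col1a1 was at 0 in all samples and Pdgfrb in every alpha sample. The 5 immune markers summed to 8.63 to 27.6 FPKM in alpha, 1.35 to 21.9 in beta and 15.9 to 44.3 in delta cells, mostly from C1qa, and Ptprc and Adgre1 were at 0 in every alpha sample. The part of these cells in the level of Vgf was not tested. Beta and alpha cells differed by -0.93 ± 0.35 (adjusted p = 0.119), which passed in the lower set (-1.49, adjusted p = 0.0135) and without alpha sample 3 (-1.20, adjusted p = 0.0176).

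**Figure D2:**
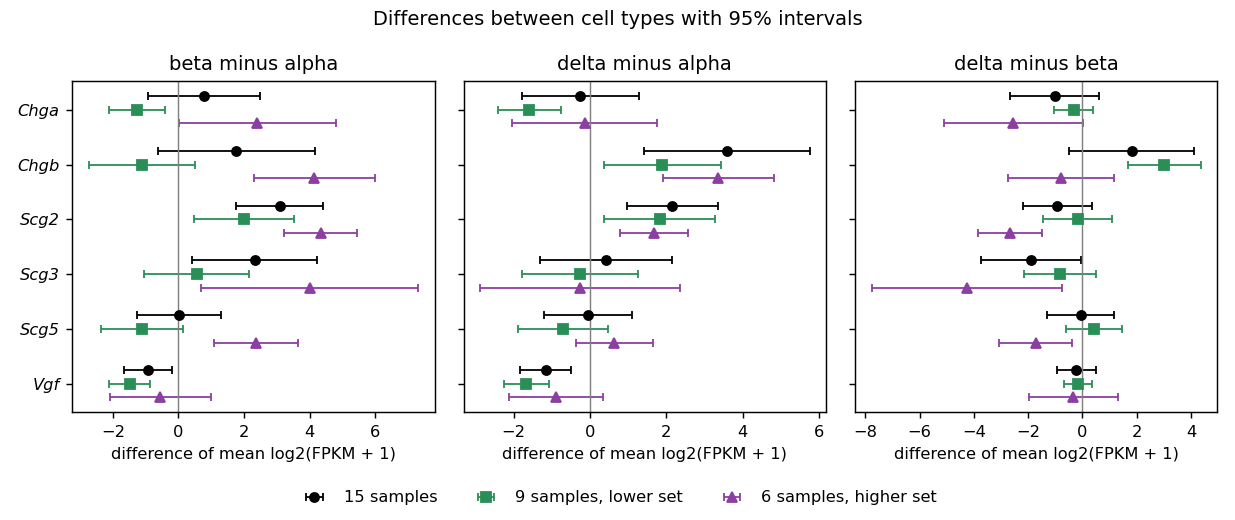
Differences of mean log2(FPKM + 1) between cell types for each granin gene, with 95% intervals, over all 15 samples (circles), the 9 samples of the lower ribosomal set (squares) and the 6 of the higher set (triangles, 1 of them beta cells). Scg2 lies to the right of 0 in beta and delta against alpha cells in all 3 fits, as does Chgb in delta against alpha cells, and Vgf lies to the left of 0 in delta against alpha cells, whereas Chgb in delta against beta cells is at 3.02 in the lower set and -0.78 in the higher set.

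Counted together, 3 of the 6 granin genes were called between delta and alpha cells, Chgb and Scg2 higher and Vgf lower in delta cells, where 6.81% of all genes tested were called, 5.33% as higher and 1.48% as lower. The call of Vgf is favoured by the filter it passed through alpha cells alone. Without that filter limma called 0 of the 6 (adjusted p = 0.167 for Chgb, 0.0709 for Scg2 and 0.0596 for Vgf). Over all samples the delta and alpha values overlapped for each of the 6, whereas 6.64% of all genes tested had no overlap. Within both sets at once, the delta and alpha values of Chgb, Scg2 and Vgf did not overlap and kept 1 direction, which held for 11.3% of all genes tested, and so did the beta and alpha values of Scg2, which held for 14.3%. Between delta and beta cells 0 of the 6 were called by limma (14.7% of all genes), and 1, Scg3, had an unadjusted p under 0.05, as did 28.4% of all genes. An F-test over the 3 cell types called 2 of the 6, Scg2 (adjusted p = 0.00544) and Vgf (adjusted p = 0.0391), where 16.0% of all genes were called and the same limit applies to Vgf, and gave Chgb an adjusted p of 0.0597. In the 9 samples of the lower ribosomal set the calls were Vgf between beta and alpha cells (1 of 6, against 10.8% of all genes), Chga and Vgf between delta and alpha cells (2 of 6, against 5.35%) and Chgb between delta and beta cells (1 of 6, against 21.9%), the calls of Vgf being favoured by the filter here too. In the higher set limma called 0 of 6 between delta and alpha cells, against 1.58% of all genes, and 2 of 6, Chgb and Scg2, had an unadjusted p under 0.05, against 14.2% of all genes. Calls against the single beta sample of that set are not counted. The median difference of the 6 genes was 1.27 between beta and alpha, 0.18 between delta and alpha and -0.58 between delta and beta cells, against -0.13, 0.13 and 0.30 over all genes tested. In these bulk samples fewer cells of a type and less RNA per cell cannot be told apart.

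The makeup of the granin transcripts was described within each sample, as the share of each gene in the summed FPKM of the 6. The sum itself was 366.5 to 3075 FPKM in alpha, 1230 to 5155 in beta and 719 to 4599 in delta cells. Chga made up 39.1% ± 11.7 (SD) of the sum in alpha, 24.0% ± 10.5 in beta and 12.8% ± 2.88 in delta cells. Every delta sample, at 7.61% to 16.0%, lay below every alpha sample, at 23.7% to 52.0%.

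Chgb showed the reverse, with 45.4% ± 16.3 of the sum in delta cells against 11.4% ± 8.83 in alpha and 10.7% ± 2.28 in beta cells. Its lowest share in delta cells, 26.2%, lay above its highest in alpha cells, 22.8%, and in beta cells, 12.9%. Scg2 made up 42.1% ± 9.09 in beta cells, 25.3% ± 4.83 in delta and 15.1% ± 6.25 in alpha cells. Its beta range, 32.6% to 54.5%, lay above the alpha range, 8.54% to 24.0%, and met the delta range, 19.5% to 33.1%, at its lower end. These shares of 1 sum are not independent of each other and were not tested.

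The most abundant granin was Chga in 3 of 5 alpha samples and Scg5 in the other 2, Scg2 in 3 of 4 beta samples and Chga in the other, and Chgb in 4 of 6 delta samples. In delta samples 1 and 2 it was Scg5 and Scg2. Scg5 led in samples of the higher ribosomal set only, namely alpha 2, alpha 3 and delta 1. The ratio of Chgb to Chga was 0.135 to 0.439 in alpha cells, 0.246 to 1.02 in beta cells and 1.63 to 8.71 in delta cells, so the 6 delta samples of both sets lay above all other samples. The ratio of Scg2 to Chga was 0.164 to 1.01 in alpha, 0.987 to 4.31 in beta and 1.58 to 2.77 in delta cells, with beta and delta cells overlapping. The ratio of Chgb to Scg2 was 0.195 to 2.68 in alpha, 0.197 to 0.379 in beta and 0.796 to 3.40 in delta cells, with alpha and delta cells overlapping. The ratios of Scg3 and of Scg5 to Chga overlapped between all 3 cell types. How often other gene pairs separate the cell types was not tested.

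**Figure D3:**
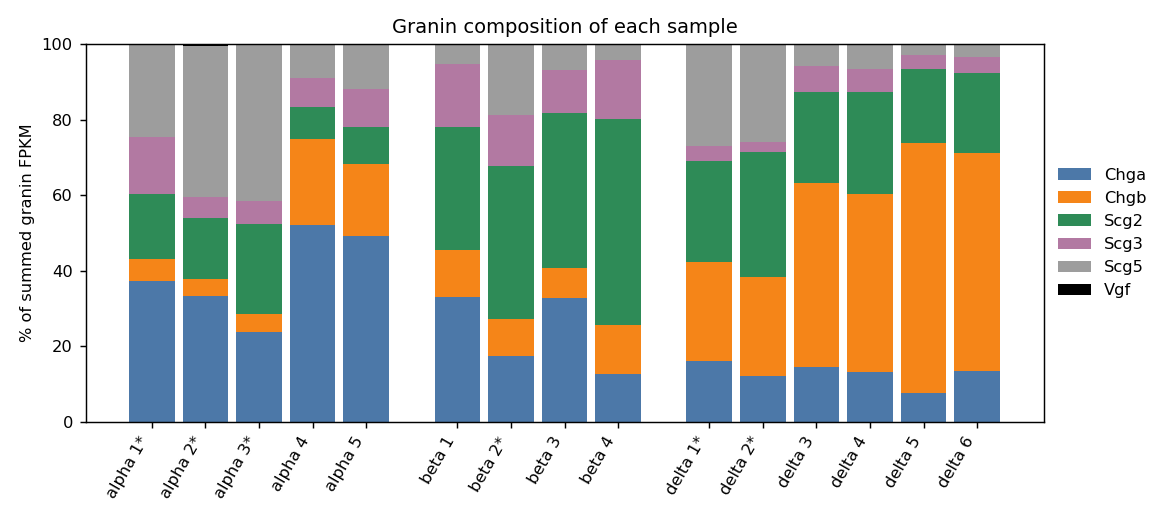
Share of each granin gene in the summed granin FPKM of each sample, in percent, with the 6 samples of the higher ribosomal set marked by an asterisk. Chgb takes 26.2% to 66.3% in the 6 delta samples and at most 22.8% elsewhere, and Scg2 takes 32.6% to 54.5% in the 4 beta samples.

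Within cell types Chga, Chgb, Scg2 and Scg3 correlated more closely with each other than with Scg5 or Vgf. After subtraction of the cell-type mean from log2(FPKM + 1), Pearson's r over the 15 samples was 0.937 between Chga and Chgb, 0.911 between Chga and Scg3 and 0.924 between Chgb and Scg3. It was 0.928 between Scg2 and Scg3, 0.885 between Chgb and Scg2 and 0.774 between Chga and Scg2. Scg5 reached 0.179 to 0.457 with the other 5, and Vgf 0.179 to 0.645, highest with Chga and Chgb (0.601). The samples also share their ribosomal sets, and r with the summed ribosomal protein level was -0.555 for Chga, -0.553 for Chgb, -0.431 for Scg3 and -0.260 for Scg2, but 0.588 for Scg5. These correlations describe 15 samples and the part of the sets in them was not tested.

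The genes whose log2(FPKM + 1) was most alike over all 15 samples were found by Pearson's r among the 14405 genes. For Chga they were Rrbp1 (0.927), Golga2 (0.923) and Tmem131 (0.917), and for Chgb Hivep1 (0.961), Zfp608 (0.956) and Gprasp1 (0.953). For Scg2 they were Hspa12a (0.961), Pik3r1 (0.957) and Chst11 (0.955), and for Scg3 Atp2b1 (0.968), Exph5 (0.964) and Ncl (0.959). For Scg5 they were Dnajc14 (0.919), Serhl (0.917) and Kansl2 (0.910), and for Vgf Gm15138 (0.920), St8sia6 (0.904) and Col1a2 (0.893). No granin was among the 3 most like any other granin.

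Of 8 genes of granin and prohormone processing, 2 were called in at least 1 of the 3 comparisons, Pcsk1 and Furin, as were 19.0% of all genes tested. Pcsk1, the convertase of proinsulin, was at 0.365 to 2.36 FPKM in alpha cells, 56.5 to 263 in beta and 12.7 to 21.4 in delta cells, with no overlap. Beta cells exceeded alpha cells by 5.92 ± 0.42 on the log2 scale (limma, adjusted p = 3.46e-07), delta cells exceeded alpha cells by 3.12 ± 0.38 (adjusted p = 5.29e-05) and delta cells were below beta cells, with a difference of -2.79 ± 0.41 (adjusted p = 0.000233). The call of delta against alpha cells was lost in the higher ribosomal set (2.81, adjusted p = 0.0945), in a range of 1.23e-06 to 0.0945 over the alternatives. Furin, a convertase of the trans-Golgi network, rose from beta to delta cells by 1.48 ± 0.37 (adjusted p = 0.0131), a call that was lost under several alternatives. These were leaving out beta sample 4 (1.28, adjusted p = 0.0546), size factors (1.13, 0.0866), quantile normalization (1.05, 0.0713), rescaling without hormone genes (0.87, 0.214) or also without mitochondrial and the 3 largest genes (1.74, 0.0589) and the replicate block (1.23, 0.0668). In the higher set, with 1 beta sample, the difference was 0.61. The adjusted p of Furin ran from 0.00252 to 0.634 over the alternatives.

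Pcsk2, whose product needs the Scg5 chaperone, did not separate the cell types, with means of 368 ± 185 FPKM in alpha (n = 5), 215 ± 126 in beta (n = 4) and 268 ± 78.7 in delta cells (n = 6) and adjusted p of 0.363, 0.769 and 0.594 for beta against alpha, delta against alpha and delta against beta cells. Cpe, the carboxypeptidase that trims the cut ends, was at 512 ± 419, 700 ± 417 and 378 ± 119 FPKM in alpha, beta and delta cells (adjusted p = 0.575, 0.994 and 0.504). Pcsk1n, the granin-like inhibitor of Pcsk1, was at 70.0 ± 86.0, 46.2 ± 40.9 and 106 ± 70.3 FPKM (adjusted p = 0.881, 0.448 and 0.466). In the lower ribosomal set Pcsk1n passed in beta against alpha cells, with the opposite sign (-2.62, adjusted p = 0.0152), and in delta against beta cells (2.37, adjusted p = 0.00576), where the higher set gave -1.68, and over the alternatives the adjusted p ran from 0.0152 to 1.0 and from 0.00576 to 0.902. The remaining genes of this list, Pam, Cpd and Qpct, did not pass in any comparison.

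Of 16 genes of the granule membrane and of exocytosis, 6 were called in at least 1 comparison, against the same 19.0% of all genes. Slc30a8, the zinc transporter of insulin granules, was at 96.9 to 384 FPKM in alpha and 97.7 to 568 in beta cells but at 0.922 to 3.14 in delta cells, a difference of -6.14 ± 0.48 from alpha cells (limma, adjusted p = 4.28e-07) and of -6.12 ± 0.51 from beta cells (adjusted p = 7.52e-07). Cadps, a priming factor of dense-core granules, followed the same order, with means of 16.8, 18.8 and 2.62 FPKM in alpha, beta and delta cells and differences of -2.31 from alpha (adjusted p = 0.000109) and -2.40 from beta cells (adjusted p = 0.000116). Cadps lost its call against alpha cells in the higher ribosomal set (-2.58, adjusted p = 0.0583) and after rescaling without hormone genes (-0.73, adjusted p = 0.205), the latter being the largest adjusted p over its alternatives. That rescaling lowers the values before 1 is added, as described for Vgf.

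Sytl4, the granuphilin that docks granules, was high in beta cells, with means of 1.88, 66.5 and 0.636 FPKM in alpha, beta and delta cells and a difference of 4.48 ± 0.53 between beta and alpha cells (limma, adjusted p = 4.24e-05) and of -5.11 ± 0.51 between delta and beta cells (adjusted p = 5.49e-06). Syt5, a synaptotagmin, was highest in delta cells, at 14.1, 5.47 and 43.9 FPKM, by 1.53 over alpha cells (adjusted p = 0.0135) and 2.83 over beta cells (adjusted p = 0.000116). Syt9 was below its alpha level in beta cells, with a difference of -2.13 ± 0.39 (adjusted p = 0.00280). Syt9 and Rph3al, an effector of Rab proteins, were also called higher in delta than in beta cells, by 1.595 (adjusted p = 0.00916) and 1.11 (adjusted p = 0.0298). Neither of these 2 calls was kept after rescaling without hormone genes. In the higher set Syt5 in delta cells differed by 1.75 from alpha cells (adjusted p = 0.287, its largest over the alternatives). Beta cells were 1 sample in that set, and Syt5 in delta cells differed from it by 2.30. Between this 1 beta sample and alpha cells Sytl4 and Syt9 differed by 5.57 and -2.52, where a call cannot be judged. The adjusted p of Sytl4 between beta and alpha cells was at most 0.128 over the alternatives. After rescaling without hormone genes, which shrinks the differences of low genes, Syt9 differed between beta and alpha cells by -0.54 (adjusted p = 0.484, its largest). The other 10 genes of the list did not pass, among them Ptprn and Ptprn2, the receptor-type phosphatases of the granule membrane.

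**Figure D4:**
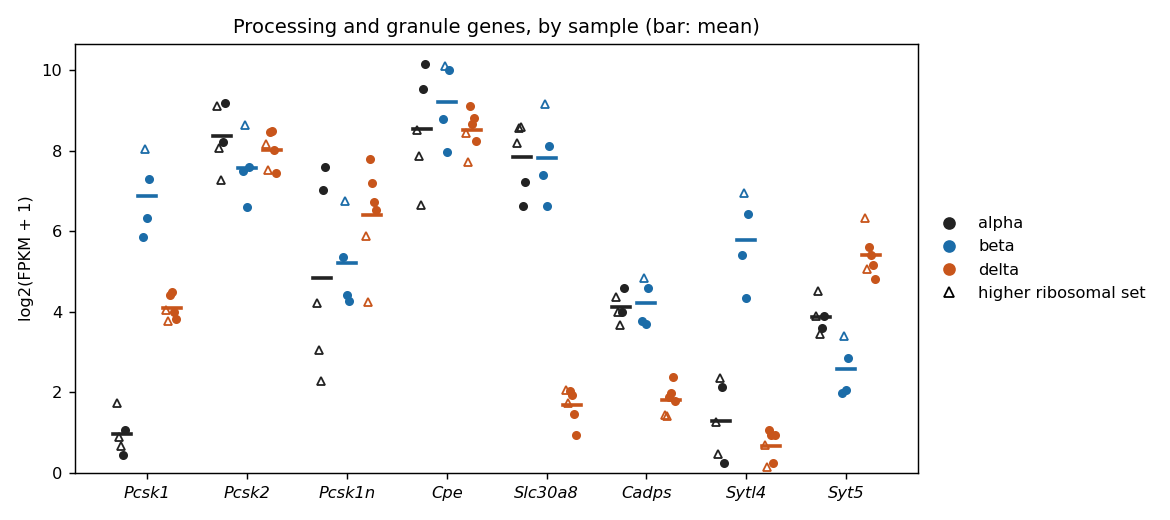
Level of 8 genes that process granins or serve the granule, as log2(FPKM + 1), in every alpha, beta and delta sample, with horizontal bars for the mean and open triangles for the higher ribosomal set. Pcsk1 separates the 3 cell types without overlap, Slc30a8 and Cadps are lowest in the 6 delta samples and Sytl4 is highest in the 4 beta samples, whereas Pcsk2, Pcsk1n and Cpe overlap between all 3.

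Of 9 genes of granule biogenesis 1 was called, again against 19.0% of all genes. It was Ica1l, a relative of the islet autoantigen gene Ica1, which was at 0.0158 to 0.587 FPKM in alpha, 1.78 to 12.4 in beta and 0.0510 to 0.859 in delta cells. Beta cells exceeded alpha cells by 2.47 ± 0.41 (limma, adjusted p = 0.00122, or 0.0529 in the lower ribosomal set, at most 0.131 over the alternatives) and delta cells lay below beta cells, with a difference of -2.43 ± 0.40 (adjusted p = 0.000613). As log2 ratios of mean FPKM, without a test, these differences were 4.74 and -4.53. Ica1l passed the filter through beta cells alone, which by itself favours these calls. Hid1, Ccdc186, Eipr1 and the other 5 did not pass. Of the regulators, Insm1, a zinc finger factor of endocrine cells, was above its alpha level in delta cells by 1.97 ± 0.42 (adjusted p = 0.00748), with 1.19 in the lower set (adjusted p = 0.167) and 2.49 in the higher set (adjusted p = 0.179). Neurod1 was below its beta level in delta cells, with a difference of -1.68 ± 0.43 (adjusted p = 0.0151). This call was lost in the lower set (-1.36, adjusted p = 0.0992), with the replicate block (-1.53, 0.0543) and after rescaling without hormone genes (-1.43, 0.0660). Rest, the repressor of neuronal and endocrine genes, did not enter the test and was at a mean of 0.0473 FPKM in alpha, 0.0103 in beta and 0.112 in delta cells. Creb1, Crem and Atf1, whose products bind the CRE, did not pass in any comparison. Of the receptors of VGF peptides, C3ar1 was listed at 0 in 4 of 5 alpha, 3 of 4 beta and 5 of 6 delta samples, and C1qbp did not pass.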

How the data were processed

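RNA of sorted alpha, beta and delta cells was amplified with the NuGEN system, and single-end libraries were sequenced. The deposited table holds FPKM that the authors obtained with Cufflinks 2.2.1 after TopHat alignment to GRCm38, with 1 column for each of the 15 samples. The submitters' processing notes name TopHat2 2.0.8. The annotation release and use of strand are not given in the sources used here. The authors' own comparison rested on edgeR and raw counts. These counts were not used here, and no count test was run.

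In its place, limma 3.58.1 in R 4.3.3 (with a trend) was fitted to log2(FPKM + 1) of all 15 samples, with a mean for each cell type and no covariate. Genes with a mean above 1 FPKM in at least 1 cell type (14405 of 38283) were tested, with Benjamini-Hochberg adjustment over all of them and a threshold of 0.05. Tests are two-sided. Fold changes are on the log2(FPKM + 1) scale. All 6 granin genes passed the filter, Vgf through alpha cells only. The fit was tested on simulated data. Other steps used Python 3.11.15, numpy 2.4.6, pandas 2.3.3 and matplotlib 3.10.9.

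The members and gene lists were chosen with earlier results of these data known. Of each list, the genes named with differences are those called among the 4 with the largest change in each comparison, with Pcsk1, Pcsk2, Pcsk1n and Cpe. Syt9 and Rph3al in delta against beta cells were named after their values were seen, as were the uncalled genes given without values. The limit of 50000 FPKM between the ribosomal sets was set after the values were seen. Ccdc186, Eipr1 and Adgre1 were matched by gene ID, all other genes by symbol.

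Depth was judged from 5024 genes with 1 transcript longer than 1000 nt, whose low values were searched for a common single-read step. It is unknown in 9 samples, so no detection limit is given and 0 means only that a gene is listed at 0. The FPKM columns sum to 2815725 to 26257992, of which 50.3% to 94.1% fell to 3 genes. Replicate numbers were not used as pairs in the main fit (see the closing section). Alternatives were other filters and pseudocounts, other scalings, other fits, the replicate block and leaving out each sample. Protein sequence features of the granins were not computed.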

Additional observations from a re-analysis of the deposited data

Results flagged for a closer look

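In 102 groups of 4 to 6 samples, taken over the granin genes and their partner genes, the highest or lowest sample was compared with the rest by Dixon's test on log2(FPKM + 1). In 4 groups a sample stood apart, where chance at 1 in 20 gives 5.1, and no granin gene was among them. Creb1, which encodes a CRE-binding factor, was at 3.92 FPKM in alpha sample 4 against 7.14 to 8.38 in the other alpha samples. Furin was at 0.692 FPKM in beta sample 4 against 1.78 to 2.07 in the other beta samples. Ptprn was at 14.3 FPKM in delta sample 2 against 54.4 to 85.2 in the other delta samples. Syt9 was at 11.3 FPKM in alpha sample 5 against 6.81 to 7.64 in the other alpha samples.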

How the results depend on the processing

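FPKM without read totals limit precision, most of all for Vgf, and beta cells of the higher ribosomal set are 1 sample, assumed to vary like the other groups. Scaling shifted all genes: their median difference of -0.13, 0.13 and 0.30 (beta against alpha, delta against alpha, delta against beta) was 0.00, 0.00 and 0.02 with median-ratio size factors, and the higher and lower calls between beta and alpha cells went from 409 and 695 to 1091 and 981, and between delta and beta cells from 1683 and 431 to 1379 and 1297. The cause of the changes below was not tested, apart from fewer samples or genes where these were left out.

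Deviations of same-numbered alpha and beta samples correlated at -0.152 to 0.271. The mean was 0.0761 over all same-number pairs and -0.0161 over pairs with other numbers. These values cannot show whether same-numbered alpha and beta samples shared mice, because such samples can lie in different ribosomal sets, as alpha 1 and beta 1 do. With the replicate block 1 granin was called between beta and alpha and 2 between delta and alpha cells, the call of Vgf being lost (adjusted p = 0.0846), and Scg5 differed by 0.11 between delta and alpha and by 0.09 between delta and beta cells and Cpe by 0.01 between delta and alpha cells. With the replicate block over replicates 1 to 4 of alpha and beta cells, 0 granins and 0 partner genes (the processing, granule membrane and biogenesis lists) were called by limma, as were 0 of all genes tested, of which 2751 had an unadjusted p under 0.05.

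The call of Scg2 in beta against alpha cells was kept under every other alternative except the lower ribosomal set, leaving aside the higher set with its 1 beta sample. Granin calls between delta and alpha cells numbered 3, but 0 without a filter, 1 after rescaling without hormone genes and 0 in the higher set. They numbered 2, without Chgb, with a filter of 0.1 FPKM, size factors, quantile normalization or the 2 cell types alone. The F-test called 2, but 1 with a filter of 5 FPKM, without a filter and after either rescaling. It called 3 with a pseudocount of 0.1, with the set as a covariate and in the lower set. Between delta and beta cells the lower set gave 1 call, Chgb. Leaving out 1 sample gave 1 to 2, 0 to 3 and 1 to 3 calls in beta against alpha, delta against alpha and the F-test, with 0 without alpha sample 2 in the second, and 1 without alpha sample 2 or delta sample 1 in the third. Calls of partner genes between beta and alpha cells numbered 4, but 7 with size factors and 9 in the lower set, where calls over all genes went from 1104 to 2072 and 1554. They numbered 4 to 8 on leaving out 1 sample, with 8 without beta sample 2. Between delta and alpha cells they numbered 4, and 1 in the higher set (981 and 227 over all genes), and between delta and beta cells 9, and 14 in the lower set (2114 and 3159 over all genes).

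Differences that changed sign were those of comparisons in which the gene was not called over all 15 samples. In the lower set, beta against alpha cells gave -1.26 for Chga, -1.12 for Chgb, -1.11 for Scg5, -0.92 for Cpe and -2.62 for Pcsk1n, delta against alpha cells -0.27 for Scg3 and -0.25 for Pcsk1n, and delta against beta cells 0.41 for Scg5. In the higher set, delta against beta cells gave -0.78 for Chgb, -1.68 for Pcsk1n and -0.77 for Pcsk2, delta against alpha cells -0.26 for Scg3, 0.64 for Scg5 and 0.40 for Cpe, and beta against alpha cells 0.48 for Pcsk2. With the set as a covariate, delta against alpha cells gave -0.05 for Scg3 and 0.10 for Scg5, and beta against alpha cells -0.28 for Pcsk1n. Quantile normalization of delta against alpha cells gave 0.20 for Scg5, 0.31 for Cpe and 0.01 for Pcsk2. Rescaling without hormone genes gave 0.85 for Chga, 1.05 for Scg5, 1.07 for Cpe and 0.78 for Pcsk2 in delta against alpha cells, and 0.41 for Pcsk2 in beta against alpha cells, and leaving out mitochondrial and the 3 largest genes as well gave 0.17, 0.36, 0.38 and 0.07 in delta against alpha cells. On leaving out 1 sample, delta against alpha cells ran from -0.78 to 0.24 for Chga, -0.04 to 0.93 for Scg3, -0.24 to 0.14 for Scg5 and -0.51 to 0.36 for Cpe, beta against alpha cells from -0.67 to 0.47 for Scg5 and -0.27 to 1.06 for Pcsk1n, and delta against beta cells from -0.53 to 0.61 for Scg5. The settings added after the data were seen were those of the 2 ribosomal sets and the rescaling without mitochondrial and the 3 largest genes. The sequence features of granin proteins planned as alternatives were not run. As log2 ratios of mean FPKM, which give no test, Vgf differed by -2.58, -4.01 and -1.43 in the 3 comparisons and Chgb by 0.60 between beta and alpha cells.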
